A study of Sus scrofa with 12 samples.

Results

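The genes described are 9 that are best known from monocytes and macrophages: F13A1, GPNMB, LAPTM5, CD68, CD14, CD163, CSF1R, TYROBP and PTPRC. They were chosen by name, with earlier results of these libraries known, and the question was whether such genes were higher together in extracellular vesicles (EVs) than in the mesenchymal stem cells (MSCs) that released them. Each was found in the mRNA count table by its symbol or by the Ensembl pig identifier of that symbol, and the entry with the most reads stood for the gene, giving 9 of 13363 distinct symbols. Because the EV and MSC values took part in that choice, the values of the 9 genes are given as a description with no test.

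The mRNA libraries came from 3 female domestic pigs aged 3 months, each giving 1 MSC and 1 EV library. MSCs were grown from abdominal fat in medium with platelet lysate and used at passage 3, and EVs were pelleted from the medium of such cells by ultracentrifugation. The animals, tissue and culture were therefore the same in both groups, without any other treatment or genotype, and the compartment was what differed. The MSC and EV libraries of a pig carry its number here. The libraries held between 10429085 (EV, pig 1) and 12276855 (MSC, pig 2) reads on genes, so that 3 reads, the limit taken here for a count of 0, stand for 0.232 to 0.303 CPM, counts scaled to library size. In bulk RNA of this kind, fewer cells of a type and less RNA per cell cannot be told apart.

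Macrophages take up particles, microbes and dying cells and break them down in lysosomes. Their identity and survival depend on signalling through the receptor CSF1R, and they sense bacterial products through CD14 and clear haemoglobin through CD163. Adipose tissue normally holds many macrophages, whereas MSCs are stromal cells selected by growth on plastic. Some of the 9 genes are also used outside monocytes and macrophages, GPNMB in pigment and bone cells and F13A1 in platelets.

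The 9 genes did not move together. F13A1 was higher in EVs than in MSCs in 3 of 3 pigs, GPNMB was far higher in 2 of 3 pigs and changed its direction in pig 3 with the entries counted, and CD14 and CD68 stood at levels that overlapped between the groups. CSF1R, PTPRC and LAPTM5 had between 33 and 60 reads over all 6 libraries, TYROBP had 1 read and CD163 had 0. F13A1, GPNMB, CD68 and CD14, 4 of the 9, passed the filter on low counts. With a fold change over 2 and an unadjusted p under 0.05 in edgeR, F13A1 and GPNMB were counted as higher, 2 of the 4, where 5.55% of all 12392 entries tested were, and 0 of the 4 as lower, where 3.57% were. With adjustment over all entries the count was 0 of the 4, where 0% of all entries were counted in either direction. With the pig as a block, 1 of the 4 (F13A1) was counted as higher after adjustment, where 0.492% of all entries were, and 0 as lower, where 0.605% were. In DESeq2 F13A1 was also the 1 gene counted as higher after adjustment, where 1.86% of all entries were, and 0 were counted as lower, where 1.42% were. F13A1 was higher in EVs in all 3 pigs, as were 22.6% of all entries. Since these same libraries served to choose the genes, nothing is read from these counts.

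**Figure D1:**
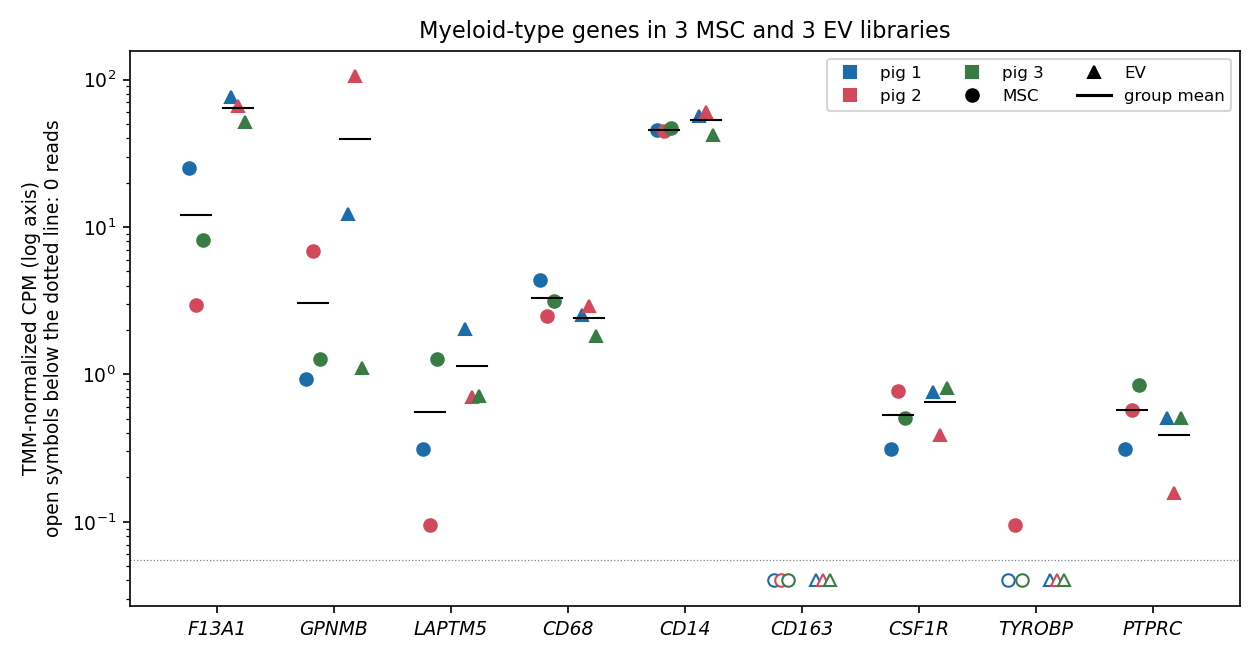
TMM-normalized CPM on a log axis for the 9 genes in each MSC (circles) and EV (triangles) library, coloured by pig, with a black line at the group mean. The 3 EV libraries lie above the 3 MSC libraries for F13A1, from 51.7 to 76.2 CPM against 2.97 to 24.9 CPM, whereas the other genes overlap or have no reads (open symbols).

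F13A1 encodes the catalytic A subunit of coagulation factor XIII, a transglutaminase that crosslinks fibrin and that macrophages also make. Its entry, ENSSSCG00000024310, lies on chromosome 7 from 3952949 to 4100229 on the minus strand of susScr3, with 4130 exonic bases. F13A1 had 322, 31 and 96 reads in the MSCs of pigs 1, 2 and 3 and 902, 840 and 511 reads in their EVs. All EV libraries were above all MSC libraries, an arrangement that 14.3% of all tested entries shared. Length-scaled and TMM-normalized, the level was 2.91 ± 2.78 RPKM in MSCs and 15.6 ± 2.97 RPKM in EVs (mean ± SD, n = 3 pigs).

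Relative to their mean, the EVs were close to each other for F13A1 and the MSCs were not, although the SDs were similar. Within pigs the EV to MSC ratio of normalized CPM was 3.05 in pig 1, 22.1 in pig 2 and 6.35 in pig 3, so that the pig with the lowest MSC level had the highest ratio. The fitted log2 fold change was 2.42 with a standard error of 0.68, and it was 3.53 without the MSC library of pig 1. A short entry of 135 bases lies inside F13A1 and held 9 reads in all. A very long entry, CCDC167, written from 446785 to 37990894 on the same strand, runs across F13A1 and held 1716 reads.

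GPNMB encodes a transmembrane glycoprotein of lysosomes and melanosomes that lipid-laden macrophages make in large amounts. The table splits GPNMB over 7 entries of 85 to 314 bases, 1 on chromosome 9 and 6 on unplaced contigs. The most-read entry, on contig GL894967-1 from 201 to 514 on the plus strand, had 12, 72 and 15 reads in the MSCs of pigs 1, 2 and 3 and 144, 1353 and 11 reads in their EVs. The groups overlapped: the EVs of pig 2 stood far above every other library, those of pig 1 were next, and those of pig 3 were below all 3 MSC libraries in reads. The level was 9.65 ± 10.7 RPKM in MSCs and 126 ± 183 RPKM in EVs, an SD above the mean in each group.

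The EV to MSC ratio of normalized CPM on this entry was 13.1 in pig 1, 15.3 in pig 2 and 0.875 in pig 3. Summed over all 7 entries the ratios were 11.3, 15.6 and 1.54, so that the direction in pig 3 turned with the entries used. The fitted log2 fold change was 3.72 with a standard error of 1.49. Without the EV library of pig 2 it was 1.11 with a standard error of 1.15, and without the MSC library of pig 2 it was 5.17. One library thus decided the size of the GPNMB difference, and the ratio within pig 1 did not depend on it.

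**Figure D2:**
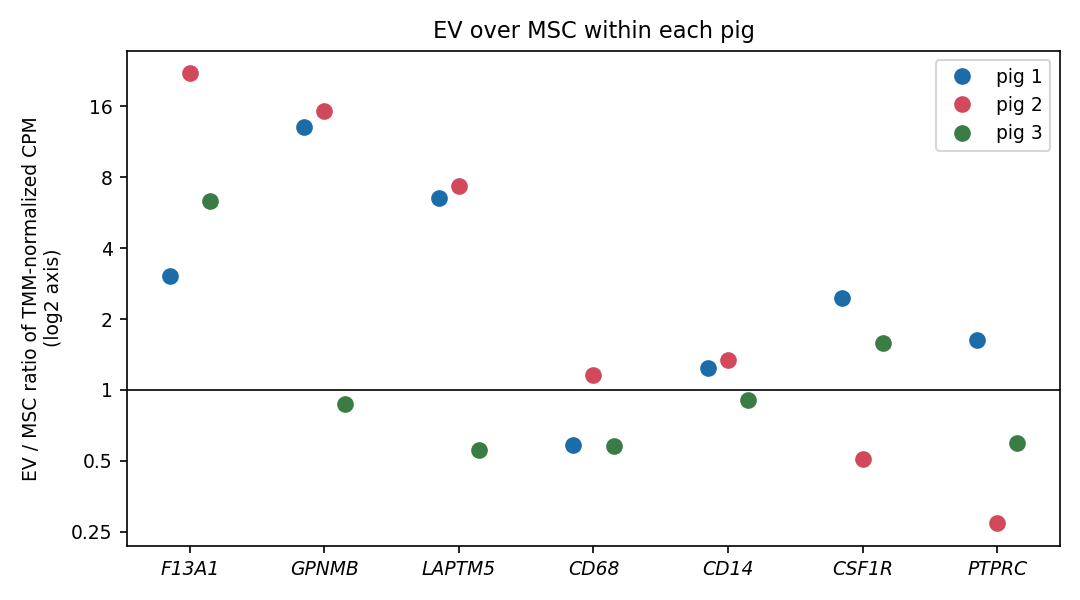
Ratio of EV to MSC in TMM-normalized CPM within each pig, on a log2 axis, for the 7 genes with reads in every library. F13A1 is above 1 in 3 of 3 pigs, GPNMB (its most-read entry) and LAPTM5 are above 1 in pigs 1 and 2 and below 1 in pig 3, and the other genes scatter around 1.

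The 7 GPNMB entries all peaked in the EVs of pig 2 but did not share a direction in pig 3. Summed, they held 46, 231 and 34 reads in the MSCs of pigs 1, 2 and 3 and 477, 4414 and 44 reads in the EVs. The EV library of pig 2 thus held 84.1% of all GPNMB reads, and it was the highest of the 6 libraries for 7 of 7 entries. The EVs of pig 1 exceeded its MSCs for 7 of 7 entries in normalized CPM. In pig 3 this held for 4 of 7 entries in normalized CPM and for 3 of 7 in reads. Among MSCs, the library of pig 2 was highest for 7 of 7 entries. Pearson's r between pairs of entries ran from 0.885 to 0.998 over the 6 libraries, which share 3 animals. The entries are pieces of 1 gene and no replicates of one another.

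**Figure D3:**
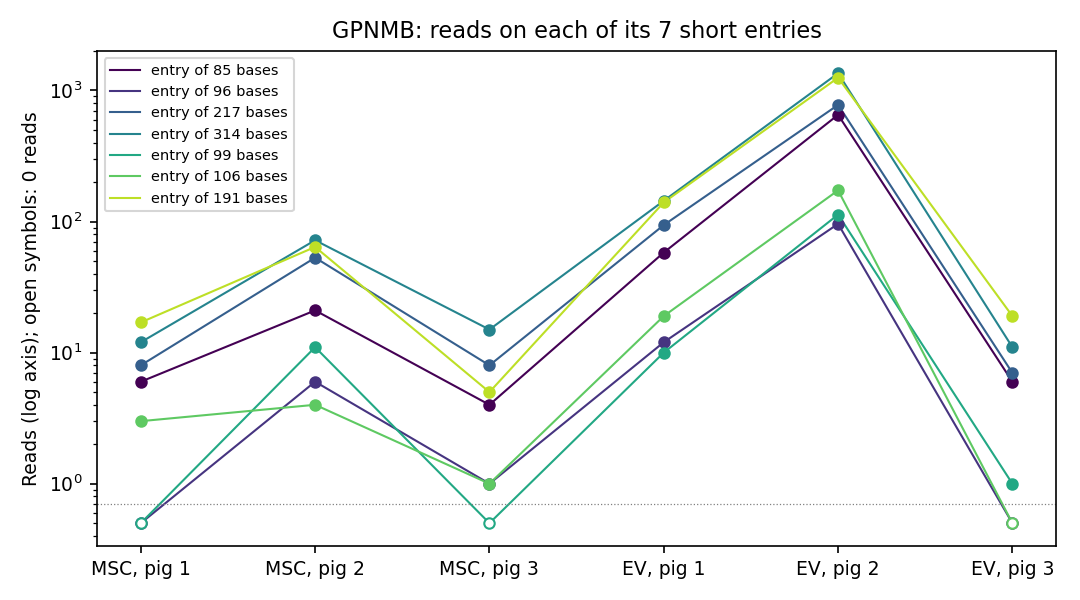
Reads on a log axis for each of the 7 GPNMB entries, with 1 line per entry across the 6 libraries (lines join an entry's values and imply no order). Every line peaks in the EVs of pig 2, with the MSCs of pig 2 highest among the MSCs.

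LAPTM5 encodes a lysosomal membrane protein of blood cells that lowers antigen receptor levels. Its entry, ENSSSCG00000025034, lies on chromosome 6 from 81070177 to 81095159. A long entry, FABP3, written from 75996929 to 81655636, runs across it and held 776 reads. LAPTM5 had 4, 1 and 15 reads in the MSCs of pigs 1, 2 and 3 and 24, 9 and 7 reads in the EVs. The groups overlapped, and the pigs fell in the same order as for the most-read GPNMB entry, with EV to MSC ratios of 6.54, 7.35 and 0.557. In pig 1 the exact 95% Poisson intervals, 1.09 to 10.2 reads in MSCs and 15.4 to 35.7 reads in EVs, did not overlap, whereas those of pigs 2 and 3 did. These intervals cover counting error only, and the gene did not pass the filter on low counts.

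CD68 encodes a heavily glycosylated protein of lysosomes and endosomes and is a common tissue marker of macrophages. Its entry, ENSSSCG00000017956, lies on chromosome 12 from 55296985 to 55299524. CD68 had 56, 26 and 37 reads in the MSCs of pigs 1, 2 and 3 and 30, 37 and 18 reads in the EVs. The groups overlapped, with ratios of 0.584, 1.16 and 0.580, and the log2 fold change was -0.46 with a standard error of 0.41.

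Of the receptors, CD14 was the only one with many reads. CD14 encodes the co-receptor that hands bacterial lipopolysaccharide to TLR4 and is the classical surface marker of monocytes. Its entry, ENSSSCG00000014369, lies on chromosome 2 from 148291451 to 148293622. CD14 had 588, 469 and 549 reads in the MSCs of pigs 1, 2 and 3 and 667, 771 and 416 reads in the EVs.

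The MSC libraries were alike for CD14, at 21.0 ± 0.389 RPKM, and the EV libraries lay on both sides of them, at 24.3 ± 4.39 RPKM. The ratios were 1.24, 1.34 and 0.904, and the log2 fold change was 0.21 with a standard error of 0.23. A second entry named CD14, over 76.0% of the same span, had 0 reads in all libraries. CD14 mRNA was therefore present in both groups at a level above that of 76.2% of the 10136 symbols with reads in MSCs and of 79.6% in EVs. Whether reads on the shared span were lost was not tested, so the level of CD14 may be too low.

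CSF1R, the receptor for the macrophage growth factors CSF1 and IL34, had 4, 8 and 6 reads in the MSCs of pigs 1, 2 and 3 and 9, 5 and 8 reads in the EVs. Its entry, ENSSSCG00000014441, lies on chromosome 2 from 157856239 to 157882290 and is overlapped by no other entry. CD163, the scavenger receptor for haemoglobin bound to haptoglobin, is split over 9 contig entries of 92 to 370 bases, and the 9 had 0 reads in each library. No difference was detectable at these depths.

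Of the 2 signalling genes, PTPRC encodes CD45, the receptor tyrosine phosphatase that marks nearly all leukocytes. PTPRC had 4, 6 and 10 reads in the MSCs of pigs 1, 2 and 3 and 6, 2 and 5 reads in the EVs. Its entry, ENSSSCG00000010908, lies on chromosome 10 from 26308759 to 26332284 and is overlapped by no other. TYROBP encodes DAP12, the adaptor of TREM2 and other activating receptors of myeloid cells. TYROBP had 1 read, in the MSCs of pig 2, on entry ENSSSCG00000002919 on chromosome 6 from 40711873 to 40715184. A second TYROBP entry with 0 reads shares 99.3% of that span, so the level of TYROBP cannot be read from this table.

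Ordered by mean level per length in EVs, GPNMB stood first (126 RPKM), followed by CD14 (24.3 RPKM), F13A1 (15.6 RPKM), CD68 (1.85 RPKM), LAPTM5 (1.44 RPKM), CSF1R (0.209 RPKM) and PTPRC, the lowest of the 7. The libraries of neighbours in this order overlapped for GPNMB and CD14, for CD68 and LAPTM5, and for CSF1R and PTPRC. For CD14, which shares most of its span with a second entry, the level may be too low. In MSCs CD14 stood first (21.0 RPKM) and GPNMB next (9.65 RPKM), with F13A1 (2.91 RPKM) beside CD68 (2.54 RPKM). There CD68 and LAPTM5 (0.703 RPKM) were the only neighbours whose libraries did not overlap.

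The 4 genes that passed the filter were compared over the 6 libraries on log2 CPM, as a description of libraries that share 3 animals and 2 groups. Pearson's r was 0.31 between F13A1 and GPNMB, 0.53 between F13A1 and CD14 and 0.87 between GPNMB and CD14, and CD68 was between -0.15 and 0.15 with each of the others. Among 7601 genes, the closest to F13A1 were PAPOLG, a poly(A) polymerase (r = 0.997), SFRS18 (r = 0.992) and RB1CC1, which starts autophagy (r = 0.987). Closest to GPNMB were SAT1, an acetyltransferase of polyamines (r = 0.996), the chloride channel gene CLCN2 (r = 0.993) and NSMAF (r = 0.989). None of the lists of blood cell genes described next holds any of these 6 genes. Those lists make up a small part of the 7601, so nothing is read from that. Closest to CD68 were CTC1, TCTN3 and NUFIP1 (r = 0.985, 0.983 and 0.965), and among the closest to CD14 were SLC9A5 and CRAMP1 (r = 0.988 and 0.985). All these genes were picked for the highest r among 7601 genes over only 6 libraries, so no link between genes is read from them.

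Other genes of macrophages gave no call in either direction. Of 38 such genes 32 had an entry, 6 passed the filter, and 0 were counted as higher or lower, with or without adjustment, by edgeR or DESeq2. Before adjustment in edgeR, 5.55% of all entries were counted as higher and 3.57% as lower, so 0 of 6 lies near those shares. The same shares stand beside the lists below, and a 0 on a list of few genes is not read as a result. Of the 6 genes, 3 have an entry that no other entry covers. The log2 fold changes of the 6 ran from -0.51 to 0.48 with a median of 0.02, beside -0.02 over all entries. Summed, the 32 genes with an entry, of which 15 were at 0 reads, reached 23.0 to 30.1 CPM in MSCs and 23.2 to 34.1 CPM in EVs.

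STAB1, a scavenger receptor that endothelial cells also carry, had the most reads, with 125, 106 and 43 in the MSCs of pigs 1, 2 and 3 and 157, 146 and 58 in the EVs. The protease gene CTSS had 54, 60 and 57 MSC reads and 101, 95 and 45 EV reads (log2 fold change 0.48, standard error 0.36, adjusted p = 0.502, edgeR). The sialic acid receptor gene SIGLEC1 had 71, 67 and 73 MSC reads and 67, 86 and 35 EV reads. At the other end, 24 of the 32 genes had under 10 reads in all.

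Of the 15 macrophage genes with 0 reads, 12 have an entry that another entry covers, among them C1QB, C1QC, MRC1, MARCO, MSR1, AIF1, TREM2 and LYZ. VSIG4, TIMD4 and CX3CR1 are not covered and were also at 0. Over all entries, 59.2% of covered entries were at 0, against 26.3% of the others, so a 0 on a covered entry cannot be read as a low level. Among the 11 macrophage genes with an entry of their own, 7 had under 30 reads, including LYVE1 and CSF2RB.

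**Figure D4:**
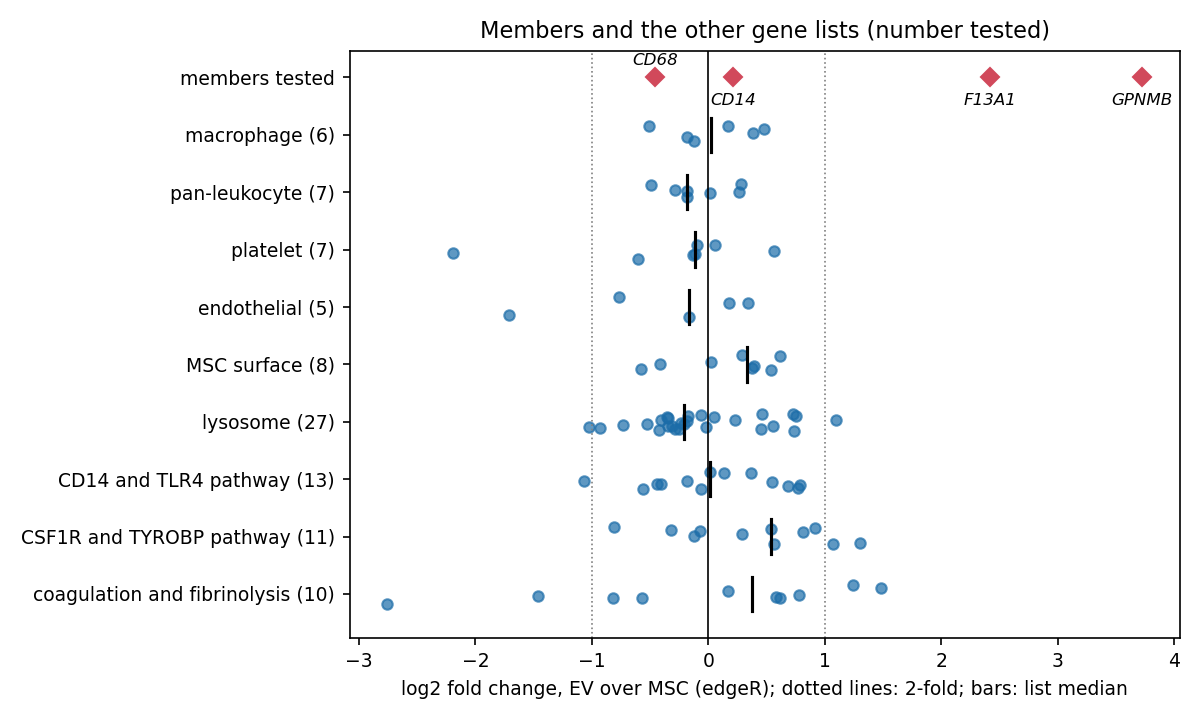
Log2 fold change of EV over MSC from edgeR for the 4 genes that passed the filter (diamonds) and for the tested genes of 9 other lists (points, with the list median as a bar and dotted lines at a 2-fold change). F13A1 and GPNMB lie at 2.42 and 3.72, whereas the 6 other macrophage genes lie between -0.51 and 0.48.

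Markers shared by leukocytes were low in both groups and gave no call: 7 of 25 genes passed the filter, 0 were counted in either direction, and the sum was 27.3 to 36.4 CPM in MSCs and 23.0 to 32.3 CPM in EVs. The small GTPase gene RAC2, the phosphatase gene PTPN6 and the actin-bundling gene LCP1 led that list, and LCP1 had 109, 37 and 52 MSC reads and 52, 41 and 58 EV reads. Lymphocyte genes summed to at most 1.82 CPM in any library, with 1 of 20 tested (CD247), and granulocyte and mast cell genes to at most 9.86 CPM, with 1 of 14 tested (ELANE). Erythroid genes summed to 9.67 to 12.6 CPM in MSCs and 13.9 to 16.6 CPM in EVs, with 1 of 10 tested (SLC4A1), and adipocyte genes to 12.6 to 22.1 and 28.0 to 34.4 CPM, with 2 of 12 tested (LPL and CEBPA). None of these genes was counted as changed, with or without adjustment. Of the genes at 0 reads, 13 of 14 lymphocyte genes and 4 of 4 granulocyte and mast cell genes have a covered entry. The same held for 2 of 4 erythroid and 4 of 4 adipocyte genes. These sums may therefore be too low and cannot be read as the level of a cell type.

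Platelet genes were examined because platelets hold F13A1 and the medium contained platelet lysate. Of 22 genes 7 passed the filter and 0 were counted as higher, with or without adjustment. PPBP, GP6, CLEC1B and MMRN1 were at 0 in all libraries, of which PPBP and GP6 are covered by another entry. The sum of the list, 4987 to 10873 CPM in MSCs and 2858 to 13972 CPM in EVs, was nearly all SPARC, which MSCs make as a matrix protein. The part of platelet lysate in F13A1 was not tested.

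Endothelial genes gave 1 call of 5 tested, PECAM1, which was lower before adjustment, with 215, 111 and 114 MSC reads and 78, 20 and 31 EV reads (log2 fold change -1.71, adjusted p = 0.249, edgeR). Of the surface genes of MSCs 8 of 12 passed the filter and 0 were counted in either direction. PDGFRA, a receptor of stromal cells, had 6507, 3948 and 4477 MSC reads and 6547, 6375 and 8685 EV reads, while THY1, a defining MSC marker, was at 0 on an entry that another entry covers.

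The genes that work beside F13A1 were mixed. In coagulation and fibrinolysis 10 of 27 genes passed the filter, 1 was counted as higher and 2 as lower before adjustment in edgeR. The median log2 fold change of the 10 was 0.38, with 6 above 0 and 4 below. After adjustment 0 were counted in edgeR, whereas DESeq2 counted 1 as higher and 1 as lower. PROS1, which encodes the anticoagulant protein S, had 1022, 684 and 1022 MSC reads and 2158, 2460 and 1703 EV reads, without overlap (log2 fold change 1.24, standard error 0.22, adjusted p = 0.206, edgeR, and 3.47e-04 in DESeq2). SERPINE2, a protease inhibitor gene, had 647, 490 and 381 MSC reads and 255, 142 and 142 EV reads, also without overlap (log2 fold change -1.46, adjusted p = 0.212, edgeR, and 0.0094 in DESeq2).

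The protease inhibitor gene A2M was lower before adjustment, with 19, 109 and 5 MSC reads and 9, 9 and 3 EV reads, groups that overlapped. FN1, a fibronectin gene and a substrate of factor XIII, had 373443, 542230 and 344929 MSC reads and 406583, 1017065 and 743455 EV reads (adjusted p = 0.488, edgeR). F13B, the gene of the carrier subunit of factor XIII, was at 0 in all libraries on an entry that no other covers.

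Of 7 other transglutaminase genes 2 passed the filter, and 0 were counted as higher and 1 as lower before adjustment. TGM2, the widely made tissue form, had 3999, 22635 and 4667 MSC reads and 1664, 5667 and 2683 EV reads (log2 fold change -1.75, adjusted p = 0.328, edgeR). Its ratio was below 1 in 3 of 3 pigs, whereas that of F13A1 was above 1 in 3 of 3. TGM5 was lower before adjustment, with 13, 12 and 14 MSC reads and 0, 0 and 5 EV reads.

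Lysosomal genes, the neighbours of GPNMB, LAPTM5 and CD68 in the cell, had 27 of 43 members tested, with 1 counted as higher and 1 as lower before adjustment and 0 after it. LAMP2, a membrane protein of lysosomes, had 2201, 1028 and 1685 MSC reads and 2513, 5300 and 2529 EV reads (log2 fold change 1.099, adjusted p = 0.247, edgeR). The glucuronidase gene GUSB had 299, 504 and 565 MSC reads and 256, 172 and 232 EV reads (log2 fold change -1.03, adjusted p = 0.275, edgeR). The median of the list was -0.20.

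The EV library of pig 2, which held most GPNMB reads, was the highest EV library for 18 of the 27 tested lysosomal genes but the highest of all 6 libraries for only 6, while the MSCs of pig 2 were highest for 17. Across the 6 libraries the r of these genes with GPNMB had a median of 0.50, and 6 were below 0. CTSC, a cathepsin gene chosen here after its values were seen because its r of 0.95 was the highest, had 2030, 4337 and 1682 MSC reads and 3211, 9997 and 1474 EV reads. In both groups pig 2 was the highest for CTSC, as it was for GPNMB, over a narrower range.

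Downstream of CD14, 13 of 24 genes of TLR4 signalling passed the filter and 0 were counted in either direction, with a median of 0.02. MYD88, the adaptor of the pathway, had 1593, 1394 and 1442 MSC reads and 1864, 1470 and 1104 EV reads. TLR4, the receptor that CD14 serves and named here after its values were seen, had 31, 184 and 50 MSC reads and 141, 305 and 59 EV reads (log2 fold change 0.79, standard error 0.79, adjusted p = 0.607, edgeR).

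For CSF1R and TYROBP, 11 of 25 pathway genes were tested, with a median log2 fold change of 0.54, 7 above 0 and 4 below. PIK3CA, a catalytic subunit of PI3-kinase used by many receptors, was higher before adjustment, with 422, 175 and 319 MSC reads and 500, 711 and 623 EV reads (log2 fold change 1.07, adjusted p = 0.237, edgeR). The adaptor gene SHC1 and the kinase gene FYN, the most-read of this list, were not counted. For CD163, 6 of 16 genes of haemoglobin and haem handling were tested and 0 were counted. HMOX1, the haem oxygenase induced downstream of CD163, had 175, 1708 and 242 MSC reads and 297, 694 and 543 EV reads. Of PTPRC and related phosphatases 11 of 16 were tested and 0 were counted, led by PTPRS, PTPN11 and PTPRM.

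The miRNAs common in blood cells differed widely in their counts. miR-142-3p, a miRNA of blood cells, had expected counts of 12, 11 and 1 in MSCs and 0, 0 and 1 in EVs. miR-223, which marks myeloid cells, had no entry, so its level is not known. miR-142-5p, miR-150 and miR-451 had at most 33 expected counts in any library. miR-486 had 96.5, 188 and 14.5 in MSCs (6.27, 12.8 and 1.53 CPM) and 27.5, 0 and 45 in EVs (41.9, 0 and 2449 CPM). miR-155-5p, which activated macrophages and other cells make, had 9470, 10798 and 2706 expected counts in MSCs and 173, 0 and 18 in EVs. miR-146a-5p, induced downstream of TLR4 in many cell types, had 10646.5, 9541.5 and 25 in MSCs (692, 649 and 2.64 CPM) and 504.5, 19 and 252.5 in EVs (768, 977 and 13742 CPM). In CPM the groups overlapped for miR-155-5p and miR-486. For miR-146a-5p all EV libraries were above all MSC libraries, a difference that was not tested here, and the 977 CPM rest on 19 counts. miR-146b, also listed, had 17.0, 43.2 and 1015 CPM in MSCs and 537, 0 and 3891 CPM in EVs, groups that overlapped. Values follow the order of the pig labels, which the titles of the small RNA samples do not share. The EV small RNA libraries were shallow, with 656888, 19454 and 18374 counts, so that 3 counts stand for 4.57, 154 and 163 CPM, and for miR-142-3p no difference was detectable at that depth.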

How the data were processed

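For mRNA the authors deposited raw read counts per entry with gene length and RPKM, from 3 MSC and 3 EV libraries. The paper names featureCounts and the submitters' notes HTSeq, with TopHat on susScr3, and whether counting used strand is not given in the sources used here. The small RNA tables the authors deposited hold expected counts and CPM. Of 29661 mRNA entries, 3 with shifted columns were left out. An entry was called covered when an entry spanning at most 1000000 bases overlapped at least 50% of it, a definition set after seeing the data. The 1120 entries on the sequence written X had 0 reads.

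EVs were compared with MSCs on all entries with edgeR 4.0.16 in R 4.3.3 (TMM, filterByExpr, quasi-likelihood test, Benjamini-Hochberg adjustment), checked on simulated data. RPKM in the text were recomputed from the counts with TMM sizes. A call needed a fold over 2 and p under 0.05. Alternatives were RLE and upper-quartile scaling, other filters, DESeq2 1.42.0, limma 3.58.1 on log2(RPKM + 1) of the deposited values, summed entries, a fit without each library in turn, and a fit blocked by pig. The pig labels pair the libraries: r of deviations was 0.258, 0.386 and 0.411 within pigs and -0.362 to -0.042 between pigs.

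The 9 genes and all lists were chosen with earlier results of these data known. Named besides them were up to 3 most-read genes per list, up to 3 called with the lowest p, markers at 0 or under 10 reads, and the 3 genes closest to each tested gene (mean CPM of at least 1, prior count 1). Some genes that this rule names are not reported here.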

Additional observations from a re-analysis of the deposited data

How the results depend on the processing

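F13A1, GPNMB and CD14 had positive and CD68 negative log2 fold changes under every alternative run, from 1.61 to 3.53 for F13A1. Among members, adjusted calls numbered 0 with edgeR and 1 (F13A1) with DESeq2 or with the pig as a block. Over all entries, 0 were counted after adjustment with edgeR (1978 had an unadjusted p under 0.05). DESeq2 counted 230 higher and 175 lower, the block for pairing counted 61 higher and 75 lower, and no filter on low counts gave 5 lower. The block changed no other call among members or macrophage genes. With limma on log2(RPKM + 1), 1 higher and 10 lower passed adjustment, 233 higher and 194 lower passed without it, and 1 member was counted (F13A1). Leaving out 1 library each gave 1 to 2 members counted as higher before adjustment, GPNMB being lost without the EVs of pig 2 (log2 fold change 1.11) or the MSCs of pig 1 (3.28) or pig 3 (3.34), against 3.72 with all libraries, and 270 (without the EVs of pig 2) to 607 (without the EVs of pig 3) entries counted as lower. LAPTM5, CD163, CSF1R, TYROBP and PTPRC had too few reads for the filter of the main fit. All of them but CD163 entered DESeq2 and the fit without a filter, which covered 8 members, and LAPTM5 entered some fits without a library. None of them was counted in these fits. Without a filter the log2 fold change of LAPTM5 was 1.01 with a standard error of 0.88.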
